A study of Mus musculus with 21 samples.

Results

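Cells of Tet2/3 double-knockout (DKO) mice that had passed through the second transfer into recipient mice, called TX2 here, were set against primary DKO CD4 T cells taken directly from knockout mice. The comparison used 12 of the 21 libraries of the series: the 7 labelled as coming from the second transplantation and the 5 labelled as peripheral DKO CD4 cells. A library is the sequenced RNA of 1 sorted sample, and expression was measured as reads per gene by RNA sequencing. TX2 replicates 1 to 4 carry the submitters' sample code J22 and are labelled male, and TX2 replicates 5 to 7 carry the code J3 and are labelled female, so line and sex cannot be told apart within TX2. A change was kept only where it had the same sign in both lines. This filter uses the same libraries as the test and is no second test. Of the 5 DKO libraries, replicate 2 is the only female, and replicates 4 and 5 are labelled young; no age is given for the others.

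All 12 libraries share the genotype Tet2-/-Tet3flx/flxCD4cre, that is, Tet2 is deleted in the germ line and Tet3 is deleted by a Cre recombinase under the CD4 promoter in the T cell lineage. The deletion is thus common to both groups, and what differs is passage through hosts. The sort differed with it: DKO cells were CD4+ CD25- TCRb+ cells that did not bind CD1d tetramer, whereas TX2 cells were CD45.2+ CD45.1- donor cells, TCRb+ by their label, with CD4 protein not part of the gate. Transfer and gate therefore cannot be told apart, and in bulk RNA fewer cells of a type and less RNA per cell cannot be told apart either.

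TET enzymes oxidise 5-methylcytosine in DNA and so help to remove methylation from enhancers and gene bodies. In developing T cells TET2 and TET3 are known to be needed for stable expression of lineage genes such as Cd4 and Zbtb7b, and mice that lack both in T cells develop an aggressive lymphoproliferation. Transferring such cells to healthy hosts, and then transferring them again, asks which cells can keep expanding and what they then express.

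The TX2 libraries held 2 T cell clones. Each T cell carries a rearranged alpha chain (TRA, locus on chromosome 14) and beta chain (TRB, locus on chromosome 6), and the hypervariable CDR3 stretch of each is a tag of its clone. The top alpha chain sequence made up 83.2% of TRA reads in the lowest TX2 library, 95.1% at the median and 95.7% in the highest, against 3.86, 77.9, 8.03, 6.15 and 12.5% in DKO replicates 1 to 5. For TRB it took 89.6, 99.7 and 99.97% (lowest, median, highest) in TX2, against 6.43, 77.8, 13.6 and 8.57% in DKO replicates 1 to 4; a TRB table of DKO replicate 5 was not analysed here. All TX2 libraries lay above all DKO libraries in both chains, and DKO replicate 2 was the only DKO library close to them.

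The 4 CDR3 sequences that led these libraries are shown because they define the lines. All 4 J22 libraries had the same top TRA and the same top TRB sequence, and all 3 J3 libraries had another pair. Sequences run 5′ to 3′, and capitals mark the bases between the end of the V segment and the start of the J segment as the deposited tables place them; the J22 beta chain has none.
J22 TRA (TRAV9N-3, TRAJ23): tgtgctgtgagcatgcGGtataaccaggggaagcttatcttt
J22 TRB (TRBV13-3, TRBJ1-1): tgtgccagcagtgatacagaagtcttcttt
J3 TRA (TRAV8N-2, TRAJ18): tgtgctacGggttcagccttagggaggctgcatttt
J3 TRB (TRBV13-2, TRBJ2-3): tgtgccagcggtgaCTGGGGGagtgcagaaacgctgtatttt

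In each line the next TRA clonotype was nonproductive (out of frame or with a stop) and took 4.13 to 4.84% of TRA reads in J22 and 11.7 to 16.8% in J3. The top 2 TRA clonotypes together took at least 99.7% of the reads in every TX2 library. In J3 a nonproductive TRB took a further 9.40 to 10.4% of TRB reads. Of the 29041 TRA reads in the 5 DKO tables, 1 carried the J22 alpha sequence and 2 the J3 alpha sequence. Of the 31591 TRB reads in the 4 DKO tables, 0 carried the beta sequence of either line, which allows a share of up to 0.00950%. Each TX2 line was thus mostly 1 clone that was rare or absent in DKO. Transfer and the clone sampled therefore cannot be told apart.

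Averaged over libraries, the top TRA share was 91.2 ± 5.43% (SD, n = 7) in TX2 and 21.7 ± 31.6% (n = 5) in DKO, a difference of 69.5 percentage points (exact permutation test, two-sided; p = 0.00253, as small as 7 and 5 libraries can give, and 0.00505 after adjustment over both chains). For TRB the difference was 69.1 points (exact permutation test, two-sided; p = 0.00606, again as small as the numbers can give). Libraries of 1 line share a clone and possibly a donor, so these p-values measure the spread between libraries and treat them as more independent than they are.

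**Figure D1:**
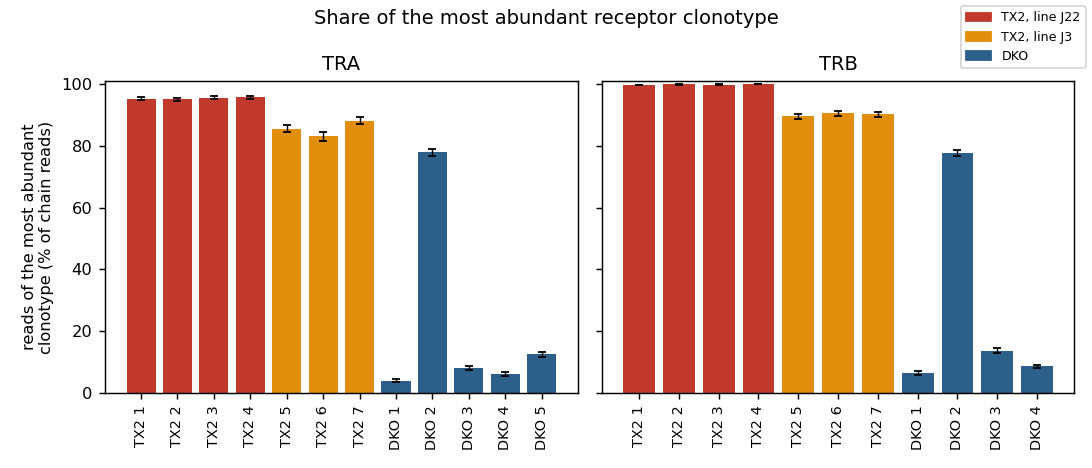
Share of the most abundant clonotype among the reads of the alpha chain (TRA, left) and the beta chain (TRB, right), in percent, per library, with 95% exact binomial intervals that cover counting error only. The 7 TX2 bars stand at 83.2% or higher for TRA, and the DKO bars at 12.5% or lower apart from DKO replicate 2 at 77.9%.

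The transcriptomes of TX2 and DKO cells differed at about as many genes as did not. Reads assigned to genes numbered 29674107 to 30730877 per TX2 library and 27661102 to 30241760 per DKO library. Levels are given as CPM (counts scaled to a common library size, here with TMM factors over all 21 libraries), which compares a gene between libraries but not with other genes, since it is not per length. Of 14034 genes tested with edgeR's quasi-likelihood test, 7255 (51.7%) had a Benjamini-Hochberg adjusted p below 0.05, and 7209 (51.4%) of those tested were called with the same sign in both lines. Among them 3541 rose (25.2% of genes tested) and 3668 fell (26.1%), while the median log2 fold change of all genes was -0.006. Past a log2 change of 1 in size, 1433 rose (10.2%) and 1888 fell (13.5%). In the account below, "rose" and "fell" mean called and of the same sign in both lines. Each count for a list of genes stands against the shares over all genes tested, 25.2% risen and 26.1% fallen.

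Each line alone gave a like number of calls against DKO: 8276 of 14004 genes (59.1%; 27.8% rose and 31.3% fell) for J22 and 8327 of 14767 (56.4%; 28.2% in each direction) for J3, and 5054 genes (36.0%) passed in the joint test and in each line alone. Another 46 genes (0.328%) were called but moved in opposite directions in the lines. Both line fits share the DKO libraries, so they are not separate tests. With counts summed over each line, so that 2 TX2 samples stood against 5 DKO, 4555 of 15064 genes (30.2%) were called. Of the 7209 genes, 4258 were called in the same direction in that fit and 0 in the opposite direction. Both this fit and the next reuse libraries of the main fit, so the absence of opposite calls is no separate support. Against the 2 DKO libraries labelled young alone, 3983 of the 7209 were called in the same direction, again with 0 in the opposite. These 2 libraries (DKO replicates 4 and 5) differed far less from each other than other DKO pairs did, with a chi-square per gene of 8.34, against 49.9 to 147, and so did TX2 replicates 1 and 2, with 6.50, against 24.2 to 309.9 for other TX2 pairs.

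**Figure D2:**
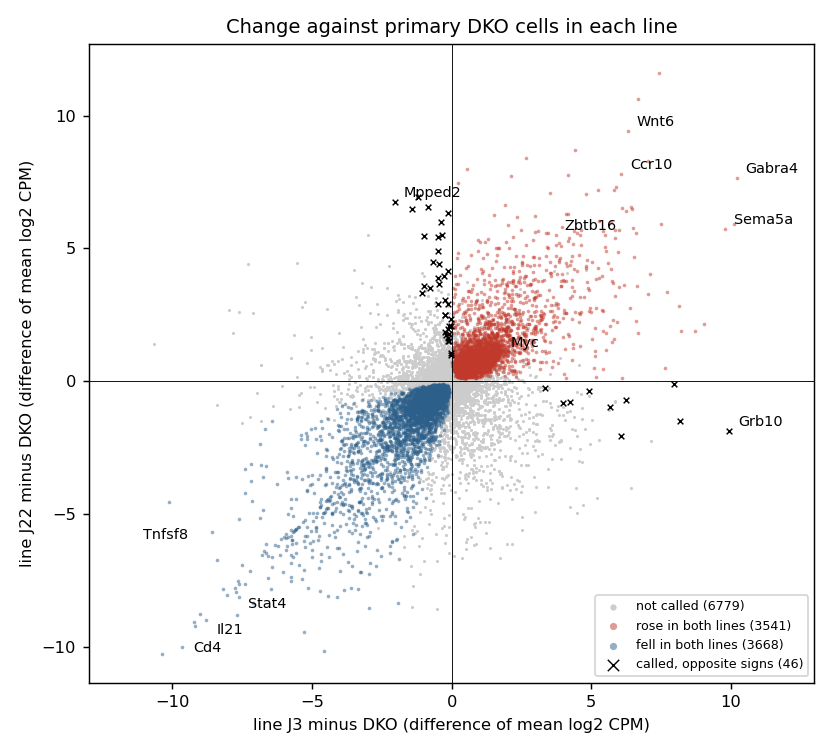
Difference of mean log2 CPM from DKO in line J22 (vertical) and in line J3 (horizontal) for the 14034 genes tested, each point a gene. The 3541 genes that rose (red, upper right) and the 3668 that fell (blue, lower left) lie in those corners, and the 46 called genes of opposite sign are crosses.

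Cd4 transcript was nearly absent from TX2 cells. Cd4 (chromosome 6, 124864692 to 124888221, GRCm38), the coreceptor that defines helper T cells and that binds MHC class II, stood at 0.633, 1.62 and 2.26 CPM (lowest, median, highest) in TX2, against 1421, 1813, 1070, 1331 and 1456 CPM in DKO replicates 1 to 5. The groups were separated by far more than the spread within either, and the fitted log2 fold change was -9.83 ± 0.33 (SE; edgeR's quasi-likelihood test, adjusted p = 1.59e-08). The CD8 coreceptor genes were near 0 as well: Cd8a reached at most 0.258 CPM in any TX2 library and 2.57 in any DKO library, and Cd8b1 0.161 and 4.41, and both were too low to be tested. Zbtb7b, which encodes ThPOK, the factor that fixes the CD4 fate, fell less, with a log2 fold change of -1.03 ± 0.27 (adjusted p = 0.00725): it was at 41.2, 105 and 133 CPM in TX2, against 170 to 273 CPM in DKO. The call on Zbtb7b did not hold against the DKO libraries labelled young alone.

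The receptor complex itself was still transcribed, though CD3 chain genes were lower in J3 than in J22. Of 24 genes of T cell receptor signalling, 1 rose and 11 fell (median log2 fold change -0.48). In the fits of each line alone 10 fell in J22 and 17 in J3. The list summed to 9070 to 10010 CPM in J22 and 6390 to 6988 CPM in J3, against 10540 to 12000 CPM in DKO. Cd3e, Cd3d, Cd3g and Cd247 differed from DKO by -1.06, -0.69, -1.39 and -1.42 in J3 on the log2 scale. In J22 they differed by -0.23, 0.03, -0.12 and 0.02. Trac, the alpha chain constant region, was at 706, 1569 and 1788 CPM in TX2, against 1355 to 1929 CPM in DKO, and did not pass (adjusted p = 0.258). Lat, the membrane adaptor that couples the receptor to calcium signalling, had 95.4, 137 and 181 CPM in TX2, against 606, 280, 481, 491 and 493 CPM in DKO, a log2 fold change of -1.83 ± 0.21. Plcg1, the phospholipase recruited to Lat, fell by 1.45 on the log2 scale, and the phosphatase gene Ptpn22 by 0.96. The kinase gene Lck fell by 0.67. Trbc1, whose exons follow the TRBJ1 segments, had 1506 to 2589 CPM in J22 and 0.315 to 0.515 CPM in J3, against 494 to 1457 CPM in DKO; as listed above, the J22 beta chain uses TRBJ1-1 and the J3 chain TRBJ2-3. With counts summed over each line, 5 genes of the list fell. Against the DKO libraries labelled young alone Lck lost its call.

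Gamma chain constant genes of the other T cell receptor type rose. Tcrg-C4 was at 294, 459 and 647 CPM in TX2, against 2.22, 18.6, 16.5, 23.5 and 14.1 CPM in DKO (log2 fold change 4.90 ± 0.52, adjusted p = 2.01e-05), and Tcrg-C1 and Tcrg-C2 rose by 3.49 ± 0.36 and 3.37 ± 0.50. All 3 genes were higher in every TX2 library than in any DKO library, where 16.2% of all genes tested were. The copies are near-identical in sequence, so reads may be divided between them unevenly. Trdc, the constant region of the delta chain that gamma-delta T cells need, had 0 reads in the 7 TX2 libraries and 457 in the 5 DKO libraries.

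**Figure D3:**
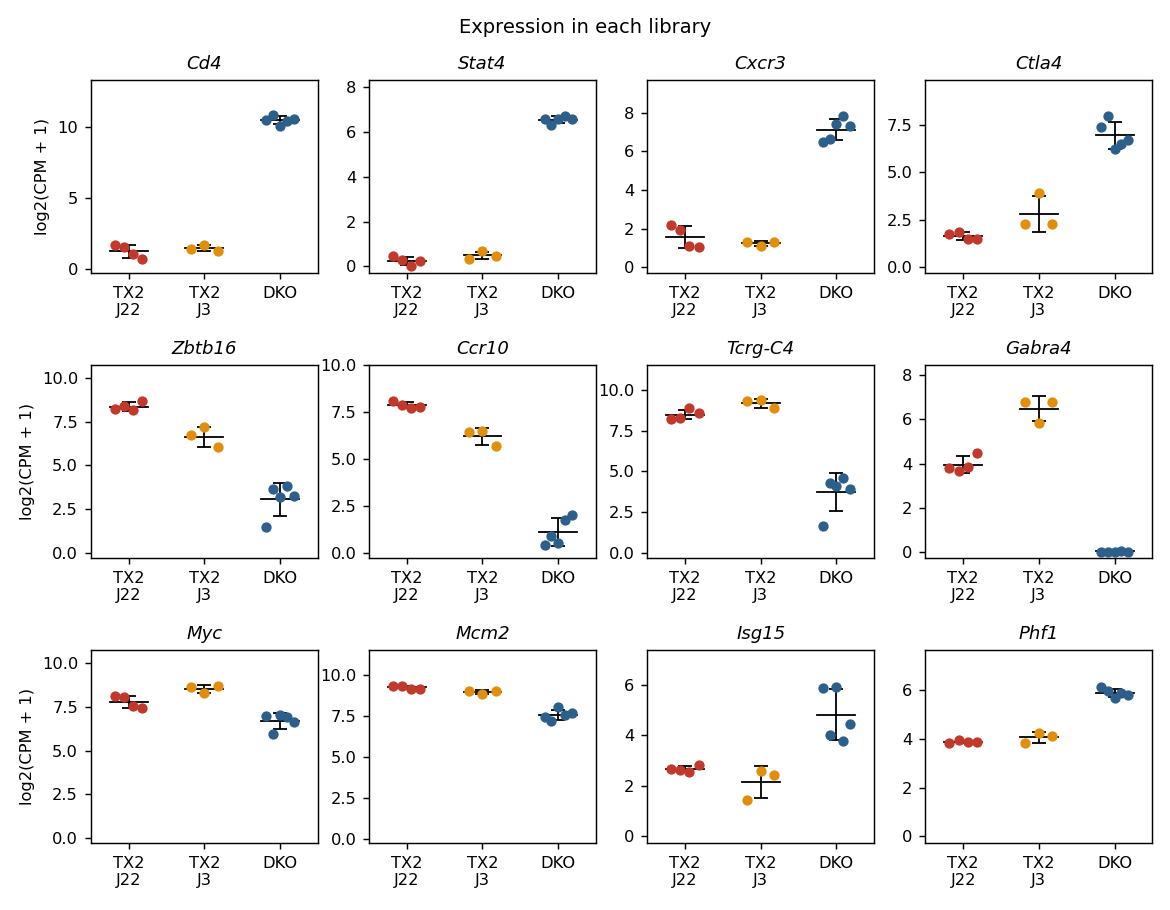
Expression as log2(CPM + 1) in each library for 12 genes named in the text, with TX2 line J22, TX2 line J3 and DKO from left to right, points for libraries and bars for the mean and SD. For each gene shown, every TX2 library lies on 1 side of every DKO library, as for 33.2% of all genes tested.

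Regulators of helper T cell fates fell as a group: of 20 genes tested, 12 fell and 0 rose, with a median log2 fold change of -0.93. Stat4, which transmits interleukin-12 signals towards the Th1 fate, had 0, 0.270 and 0.598 CPM in TX2, against 95.8, 78.6, 95.7, 103 and 93.4 CPM in DKO (log2 fold change -8.35 ± 0.45, adjusted p = 5.28e-07). Bhlhe40, a repressor that supports cytokine production, had 2.19, 3.35 and 18.8 CPM in TX2, against 142, 1313, 152, 142 and 129 CPM in DKO, a log2 fold change of -5.62 ± 0.87, or -4.22 without DKO replicate 2. Foxp3, the regulator of regulatory T cells, was at 0, 0.239 and 1.23 CPM in TX2, against 10.7, 3.57, 14.9, 41.7 and 41.8 CPM in DKO (-5.65 ± 0.96, adjusted p = 0.000496). The Th2 and Th17 transducers Stat6 and Stat3 fell by 0.83 and 1.11. For Stat4, Bhlhe40, Foxp3, Stat6 and Stat3 no TX2 library overlapped with a DKO library; 33.2% of all genes tested showed no overlap.

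Transcripts that mark regulatory T cells went the way of Foxp3 in part: 5 of 9 marker genes fell and 0 rose, where 26.1% and 25.2% of all genes did. Il2ra and Ikzf2 of that list did not pass (log2 fold changes 0.49 and -0.004). In the fits of each line alone 1 marker rose in J22 and 2 in J3, and 7 fell in each. The markers summed to 996 to 1852 CPM in J22 and 400 to 534 CPM in J3, against 580 to 1144 CPM in DKO. Gpr83 was at 0, 0.0342 and 0.252 CPM in TX2, against 2.54 to 39.6 CPM in DKO, and Lrrc32, which tethers latent TGF-beta at the surface, was at 0.258 CPM or lower in TX2, against 0.563 to 2.54 CPM in DKO. Ctla4, the inhibitory receptor for CD80 and CD86, had 1.76, 2.69 and 14.1 CPM in TX2, against 162, 249, 72.5, 87.9 and 104 CPM in DKO (log2 fold change -4.98 ± 0.58, or -5.64 without TX2 replicate 6). DKO cells were sorted as CD25-, a gate that removes most regulatory T cells, and no such gate is given for TX2.

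Zbtb16, which encodes PLZF, the factor of innate-like T cells, rose. It stood at 64.7, 282 and 415 CPM in TX2, against 1.76, 11.7, 8.04, 13.1 and 8.63 CPM in DKO, a log2 fold change of 4.75 ± 0.63 (adjusted p = 9.48e-05). The 4 J22 libraries (282 to 415 CPM) lay above the 3 J3 libraries (64.7 to 144 CPM), and all 7 above every DKO library. Of 13 innate-like and type 17 genes, 4 rose and 3 fell, near the shares of all genes (25.2% and 26.1%), and with counts summed over each line 2 rose and 0 fell. Il18r1 and Il18rap, the 2 chains of the interleukin-18 receptor, rose by 1.27 ± 0.29 and 0.86 ± 0.23, whereas Ccr6, the homing receptor of type 17 cells, fell by 2.89 ± 0.73. The calls on these 3 genes did not hold with counts summed over each line. Slamf1, a receptor used by innate-like T cells in development, had 0.732, 0.957 and 6.76 CPM in TX2, against 19.1 to 28.7 CPM in DKO, with a log2 fold change of -3.67 ± 0.55, or -4.39 without TX2 replicate 6.

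Follicular helper genes moved unevenly, with 1 rise and 5 falls among 14 tested (7.1% and 35.7%, where 25.2% and 26.1% of all genes did). Against the DKO libraries labelled young alone 0 rose and 1 fell. With counts summed over each line 1 rose and 1 fell. Il21, the cytokine by which these cells help B cells, gave 1 read in the 7 TX2 libraries together and 10992 reads in the 5 DKO libraries, so that DKO was higher by a ratio of 15811 (95% counting interval 2837 to 624542). DKO replicate 2 had 301 CPM and the other 4 DKO libraries 9.74 to 48.3 CPM. Bcl6, the regulator of the follicular fate, fell by 1.95 ± 0.50, and Batf by 0.84 ± 0.23; neither call held with counts summed over each line. Il4, a type 2 cytokine, was higher, at 1.58, 13.02 and 16.1 CPM in TX2, against 0.457 to 2.50 CPM in DKO (log2 fold change 2.79 ± 0.62), but the groups overlapped and the call did not hold against the DKO libraries labelled young alone.

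Effector products fell more often than they rose. Of 18 cytotoxic and chemokine genes 8 fell and 1 rose. Gzmk, a granzyme, gave 2 reads in TX2 and 432 in DKO. Ifng was at 0, 0.0666 and 0.171 CPM in TX2, against 0.528 to 2.30 CPM in DKO, and the chemokine gene Xcl1 fell (log2 fold change -2.90 ± 0.60, or -3.54 without TX2 replicate 5). Tnf was the gene that rose, by 1.00 ± 0.19. Among 15 S100 and annexin genes 7 fell and 0 rose. Anxa2, which binds membranes in a calcium-dependent way, had 5.86, 13.8 and 33.0 CPM in TX2, against 139 to 953 CPM in DKO, and Lgals3, a galectin, had 0.599, 1.57 and 3.61 CPM, against 11.2 to 65.9 CPM in DKO.

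Costimulatory receptors and ligands of the TNF family fell in 7 of 21 cases (33.3%, near the 26.1% of all genes) and rose in 1. Tnfrsf4 (OX40) had 0.706, 1.09 and 1.45 CPM in TX2, against 41.3, 218, 82.7, 40.1 and 49.3 CPM in DKO (log2 fold change -6.34 ± 0.47, or -5.65 without DKO replicate 2). Its ligand gene Tnfsf4 was at 0.0944 CPM or lower in TX2, against 1.99 to 11.2 CPM in DKO, and Tnfsf8 (CD30 ligand) had 0.135, 3.56 and 4.56 CPM in TX2, against 160 to 465 CPM in DKO. The inhibitory receptors were mixed: 6 of 14 fell, 1 rose and 7 did not pass. Vsir, which encodes VISTA, had 37.0, 142 and 199 CPM in TX2, against 368 to 567 CPM in DKO, and Havcr2, which encodes TIM-3, fell by 3.40 ± 0.64. Cd160 was the gene that rose, by 1.83 ± 0.42. Lag3 and Pdcd1 did not pass (adjusted p = 0.0562 and 0.217).

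Homing receptors changed in both directions, more often downward. Of 25 genes tested, 11 fell and 4 rose (44% and 16%, where 26.1% and 25.2% of all genes did). Cxcr3, the receptor of Th1 cells for interferon-induced chemokines, had 1.10, 1.45 and 3.52 CPM in TX2, against 87.0, 98.2, 167, 226 and 156 CPM in DKO (log2 fold change -6.37 ± 0.40, adjusted p = 1.03e-06). Ccr10, which directs cells to skin and mucosa, had 49.9, 208 and 272 CPM in TX2, against 0.317, 0.846, 0.418, 2.31 and 2.96 CPM in DKO (6.88 ± 0.76, adjusted p = 2.84e-05). Ccr8 was at 6.41, 158 and 272 CPM in TX2, against 1.83 to 6.07 CPM in DKO. The integrin gene Itgb1 fell by 2.23 ± 0.29, and Selplg, the selectin ligand scaffold, by 2.03 ± 0.23. For Cxcr3, Ccr10, Ccr8, Itgb1 and Selplg no TX2 library overlapped with a DKO library, as for 33.2% of all genes tested. On the whole list 3 genes were higher without overlap and 8 lower, where 16.2% and 17% of all genes tested were.

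Genes of the naive state were mostly lower than in primary DKO cells: 14 of 20 fell, 1 rose, and 1 more was called with opposite signs in the lines. Txnip, a brake on glucose uptake, had 35.4, 47.3 and 67.3 CPM in TX2, against 443, 162, 238, 235 and 215 CPM in DKO (log2 fold change -2.41 ± 0.27). Satb1, a chromatin organiser of T cells, had 87.1, 131 and 195 CPM, against 1019, 263, 557, 582 and 571 CPM in DKO (-2.16 ± 0.30), and Bach2, which restrains effector genes, fell by 1.56 ± 0.21. Tcf7, which encodes TCF-1, was at 138 to 539 CPM in J22 and 1384 to 1605 CPM in J3, against 2181 to 3616 CPM in DKO. Its partner gene Lef1 was the gene of opposite sign, with 710 to 1016 CPM in J22 and 122 to 296 CPM in J3, against 148 to 291 CPM in DKO. With counts summed over each line 10 genes of the list fell.

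Cytokine receptor and JAK kinase genes fell more often than they rose, and the SOCS feedback inhibitors were divided. Of 26 cytokine receptor chains 13 fell and 4 rose, and of 14 JAK and SOCS genes 6 fell and 2 rose. Il17ra had 50.9, 68.0 and 87.2 CPM in TX2, against 349, 204, 269, 249 and 273 CPM in DKO (log2 fold change -1.97 ± 0.17). The shared chain gene Il6st fell by 1.57 and the interferon receptor gene Ifnar1 by 0.91. The kinase gene Jak3, which serves the common gamma chain, had 135, 151 and 182 CPM in TX2, against 400 to 738 CPM in DKO, and Jak2 and Tyk2 fell by 1.63 and 0.84. All 4 JAK family kinases fell. Socs3, a feedback inhibitor induced by STAT3, had 1.47, 4.27 and 13.5 CPM in TX2, against 198, 214, 229, 103 and 86.1 CPM in DKO (-4.94 ± 0.53). Cish fell too, by 2.88 ± 0.42, whereas Socs5 and Socs6 rose by 0.44 ± 0.14 and 0.68 ± 0.12, and Socs1, Socs2, Socs4 and Socs7 did not pass.

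Interferon-stimulated genes were mostly lower: 23 of 26 fell and 0 rose, with a median log2 fold change of -2.50. Isg20, Oas1a and Ddx58 did not pass, and Isg20 averaged 40.6 CPM in TX2 and 35.7 CPM in DKO. The signal transducer Stat2 was at 17.4, 22.8 and 27.2 CPM in TX2, against 103, 46.6, 106.6, 54.8 and 60.4 CPM in DKO, and fell by 1.78 ± 0.21. Ifih1, a cytosolic sensor of viral RNA, had 2.50, 6.42 and 13.5 CPM in TX2, against 38.8 to 79.7 CPM in DKO, and Irf7, which amplifies interferon production, had 14.6, 23.5 and 26.3 CPM, against 54.9 to 203 CPM in DKO. Isg15, a ubiquitin-like modifier, had 1.69, 5.03 and 6.16 CPM in TX2, against 58.3, 15.3, 59.6, 12.9 and 21.1 CPM in DKO. Within DKO these genes varied several-fold, and 11 of the 23 were lower in every TX2 library than in any DKO library, where 17% of all genes tested were. Against the DKO libraries labelled young alone 16 fell, and with counts summed over each line 12.

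Many promoters of these genes hold letters of the element known to bind interferon-activated factors. A pair of GAAA repeats with 2 bases of any kind between them, searched on both strands in windows from 250 bases before to 50 after each gene start (RefSeq, GRCm38.p6), lay in 13 of 19 windows (68.4%) of the genes that fell and in 15 of 24 windows (62.5%) of all genes listed, against 1131 of 32851 windows (3.44%) of all genes. The stretches around it are shown for 4 genes that fell, on each gene's own strand, with the motif or its reverse complement in capitals. A match describes these letters and not binding.
Stat2 (chr10:128270256-128270305, plus strand): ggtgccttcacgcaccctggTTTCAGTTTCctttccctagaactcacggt
Igtp (chr11:58199502-58199551, plus strand): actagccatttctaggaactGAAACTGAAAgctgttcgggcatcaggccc
Isg15 (chr4:156200867-156200916, minus strand): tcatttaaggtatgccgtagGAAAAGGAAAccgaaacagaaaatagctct
Ifit1 (chr19:34640765-34640814, plus strand): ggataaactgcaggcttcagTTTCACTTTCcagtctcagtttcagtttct

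MHC class I presentation fell with them: 12 of 15 genes fell and 1 rose, where 26.1% and 25.2% of all genes tested did. All 12 were lower in every TX2 library than in any DKO library, where 17% of all genes tested were. Tap1, a subunit of the peptide transporter, had 110, 132 and 179 CPM in TX2, against 397, 266, 458, 325 and 314 CPM in DKO (log2 fold change -1.39 ± 0.15), and Tap2 fell by 0.63 ± 0.09. The nonclassical class I genes H2-T23 and H2-T22 fell by 1.61 and 1.05. Reads of class I genes can be divided between near-identical copies.

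Genes of DNA synthesis rose almost without exception. Of 30 DNA replication genes 28 rose and 0 fell, with a median log2 fold change of 1.01. Mcm2, Mcm3 and Mcm6, subunits of the replicative helicase, rose by 1.51 ± 0.15, 1.46 ± 0.15 and 1.08 ± 0.14. Mcm2 was at 446, 559 and 652 CPM in TX2, against 168, 145, 259, 185 and 203 CPM in DKO. With counts summed over each line 23 of the 30 rose. The E2F motif TTTGGCGC was present in 5 of 25 promoter windows (20%) of all genes listed, against 0.514% of all windows. Among the genes that rose it was present in 5 of 23 windows (21.7%). Of these, 3 are shown as above, with the motif in capitals.
Mcm6 (chr1:128359788-128359835, minus strand): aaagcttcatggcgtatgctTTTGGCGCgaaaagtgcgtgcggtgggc
Mcm5 (chr8:75109340-75109387, plus strand): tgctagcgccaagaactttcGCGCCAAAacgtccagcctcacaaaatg
Pola1 (chrX:93632266-93632313, minus strand): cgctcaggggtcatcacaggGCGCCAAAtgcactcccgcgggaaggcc

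The G1 machinery that governs entry into S phase shifted in both directions, with 9 of 19 genes up and 4 down. E2f1, an activator of replication genes, had 55.8, 63.4 and 68.8 CPM in TX2, against 16.6, 17.8, 30.0, 20.2 and 24.1 CPM in DKO (adjusted p = 1.05e-05), and E2f3 and Cdk4 rose by 1.24 and 1.25. Rb1, the retinoblastoma protein that restrains E2F factors, had 26.5, 44.2 and 47.9 CPM in TX2, against 74.9 to 99.8 CPM in DKO (-1.15 ± 0.17). Cdkn2a, the locus of p16 and p19ARF, rose too, with 2.00, 10.7 and 22.3 CPM, against 0.246 to 1.38 CPM in DKO.

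Markers of dividing cells were called less often than genes of DNA synthesis. Mki67 was at 296, 441 and 549 CPM in TX2, against 223, 254, 572, 303 and 440 CPM in DKO, and did not pass (log2 fold change 0.25 ± 0.23, adjusted p = 0.383). Of 26 mitosis and spindle genes 8 rose and 0 fell (30.8%, near the 25.2% of all genes that rose). Their median log2 fold change was 0.80, against 1.01 for the DNA replication genes. The 26 genes summed to 2467 to 3873 CPM in TX2, against 958 to 2980 CPM in DKO. Mad2l1 and Bub1b, of the spindle checkpoint, rose by 1.16 ± 0.26 and 1.01 ± 0.30. With counts summed over each line 0 of the 26 were called.

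DNA damage and repair genes rose in 21 of 33 cases and fell in 0. With counts summed over each line 12 rose, and in J22 alone 16 rose and 2 fell. The mismatch repair gene Msh6 was at 123, 159 and 218 CPM in TX2, against 63.7 to 82.9 CPM in DKO, and rose by 1.16 ± 0.14. Chek1, the checkpoint kinase of S phase, had 42.6, 49.5 and 54.0 CPM in TX2, against 9.04, 8.50, 18.9, 15.2 and 14.8 CPM in DKO (1.85 ± 0.19). Xrcc5, which encodes Ku80 of end joining, rose by 1.00 ± 0.09.

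Trp53 rose, while the genes of its list moved both ways. It had 352, 428 and 473 CPM in TX2, against 214, 232, 227, 253 and 251 CPM in DKO (log2 fold change 0.79 ± 0.08, adjusted p = 1.79e-05). Of 20 genes on the p53 list, Trp53 included, 3 rose and 7 fell (15% and 35%, where 25.2% and 26.1% of all genes did). With counts summed over each line 1 rose and 5 fell. Pmaip1, which encodes the death inducer NOXA, had 4.37, 6.25 and 7.97 CPM in TX2, against 17.6 to 65.4 CPM in DKO, and Gadd45b and the death receptor gene Tnfrsf10b fell by 2.40 ± 0.29 and 2.28 ± 0.28. In the BCL2 family 3 of 15 rose and 3 fell (20% each, below the shares of all genes). Mcl1, a survival factor of lymphocytes, was at 177, 195 and 245 CPM in TX2, against 474, 421, 428, 445 and 463 CPM in DKO (-1.17 ± 0.08), and Bak1, a pore-forming death effector, rose by 0.75 ± 0.12.

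Myc (chromosome 15, 61985391 to 61990374, GRCm38), the growth regulator of activated lymphocytes, was at 169, 273 and 416 CPM in TX2, against 124, 60.8, 131, 118 and 99.7 CPM in DKO (log2 fold change 1.39 ± 0.26, adjusted p = 0.000821). All TX2 libraries lay above all DKO libraries, with J3 at 308 to 416 CPM and J22 at 169 to 273 CPM. Of 24 ribosome biogenesis genes 20 rose and 1 fell (median 0.90), and 20 rose with counts summed over each line. Srm, the spermidine synthase, rose by 1.90 ± 0.24, and the nucleolar genes Nop2 and Nop58 by 1.30 ± 0.14 and 1.23 ± 0.16. The E-box CACGTG bound by MYC and MAX lay in 2 of 13 promoter windows (15.4%) of the genes that rose. It lay in 3 of 18 windows (16.7%) of all genes listed, against 7.15% of all windows. The window of Nop2 holds 1.
Nop2 (chr6:125131803-125131848, plus strand): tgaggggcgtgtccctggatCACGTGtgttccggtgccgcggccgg

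Metabolic genes rose more often than they fell. Of 19 amino acid and one-carbon genes 11 rose and 1 fell. Slc7a5, the large neutral amino acid transporter, had 204, 237 and 348 CPM in TX2, against 48.5, 40.5, 78.9, 58.5 and 55.9 CPM in DKO (log2 fold change 2.14 ± 0.19). Shmt2, which makes one-carbon units in mitochondria, had 389, 408 and 684 CPM in TX2, against 113 to 172 CPM in DKO. In glycolysis 11 of 19 rose and 2 fell: Hk2, the inducible hexokinase, rose by 1.96 ± 0.22 and Gapdh by 0.92 ± 0.14. Oxidative phosphorylation subunits rose in 13 of 27 cases by small steps (list median 0.24), and 2 of the 27 rose against the DKO libraries labelled young alone. Tfrc, the transferrin receptor that brings in iron, rose by 2.32 ± 0.24. Cholesterol synthesis genes rose in 4 of 20 cases and fell in 1, below the share of all genes.

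Genes that write and read DNA methylation also differed, although both groups lack Tet2 and Tet3 function by genotype. Counts over a gene include reads outside the deleted part, so they do not check the deletion. Tet1, the remaining family member, had 0.290, 1.13 and 1.79 CPM in TX2, against 10.4, 3.53, 11.3, 9.45 and 7.08 CPM in DKO (log2 fold change -2.92 ± 0.46, adjusted p = 0.000302). Tet2 transcript fell by 1.04 ± 0.16 and Tet3 transcript by 0.40 ± 0.12, with overlap for Tet3 between groups and no call of Tet3 when counts were summed over each line. Uhrf1, which brings the maintenance methyltransferase to new DNA, had 259, 350 and 425 CPM in TX2, against 57.4 to 145 CPM in DKO (1.78 ± 0.22). Idh2, which makes a substrate of the TET enzymes, had 2.05, 6.80 and 9.33 CPM in TX2, against 26.8 to 47.9 CPM in DKO. On the whole list of 18, 7 rose and 8 fell (38.9% and 44.4%, where 25.2% and 26.1% of all genes did).

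Polycomb genes, whose products silence developmental genes, rose in 9 of 21 cases and fell in 4 (42.9% and 19%, where 25.2% and 26.1% of all genes did). Against the DKO libraries labelled young alone 3 rose and 4 fell. Phf1, an accessory subunit of PRC2, had 13.1, 13.6 and 18.1 CPM in TX2, against 69.2, 61.4, 50.8, 57.5 and 55.0 CPM in DKO (log2 fold change -2.03 ± 0.11, adjusted p = 4.02e-07). Cbx2 and Cbx7, alternative chromodomain subunits of PRC1, moved in opposite directions, by 1.88 ± 0.14 and -1.96 ± 0.29. Cbx2 was at 57.5, 66.3 and 71.8 CPM in TX2, against 11.3 to 19.9 CPM in DKO, and Cbx7 at 12.8, 15.6 and 38.4 CPM, against 68.1 to 107 CPM in DKO.

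Among genes linked to early T cell stages and T cell leukaemia, 4 of 19 rose and 3 fell, at or below the shares of all genes (25.2% and 26.1%), so the genes below are given singly. Hhex and Lyl1, transcription factors of progenitors, rose by 2.50 ± 0.42 and 1.75 ± 0.29. Hhex was at 27.7, 32.9 and 65.1 CPM in TX2, against 2.88 to 16.96 CPM in DKO. Notch1 and Bcl11b, which commit progenitors to the T lineage, fell by 1.73 ± 0.33 and 1.90 ± 0.39; the call on Notch1 did not hold against the DKO libraries labelled young alone. Immediate early genes fell in 8 of 18 cases and rose in 3. Junb, an AP-1 subunit, had 104, 138 and 481 CPM in TX2, against 1704, 1817, 601, 1297 and 1346 CPM in DKO (-2.55 ± 0.43), and Klf6 fell by 2.06 ± 0.29.

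**Figure D4:**
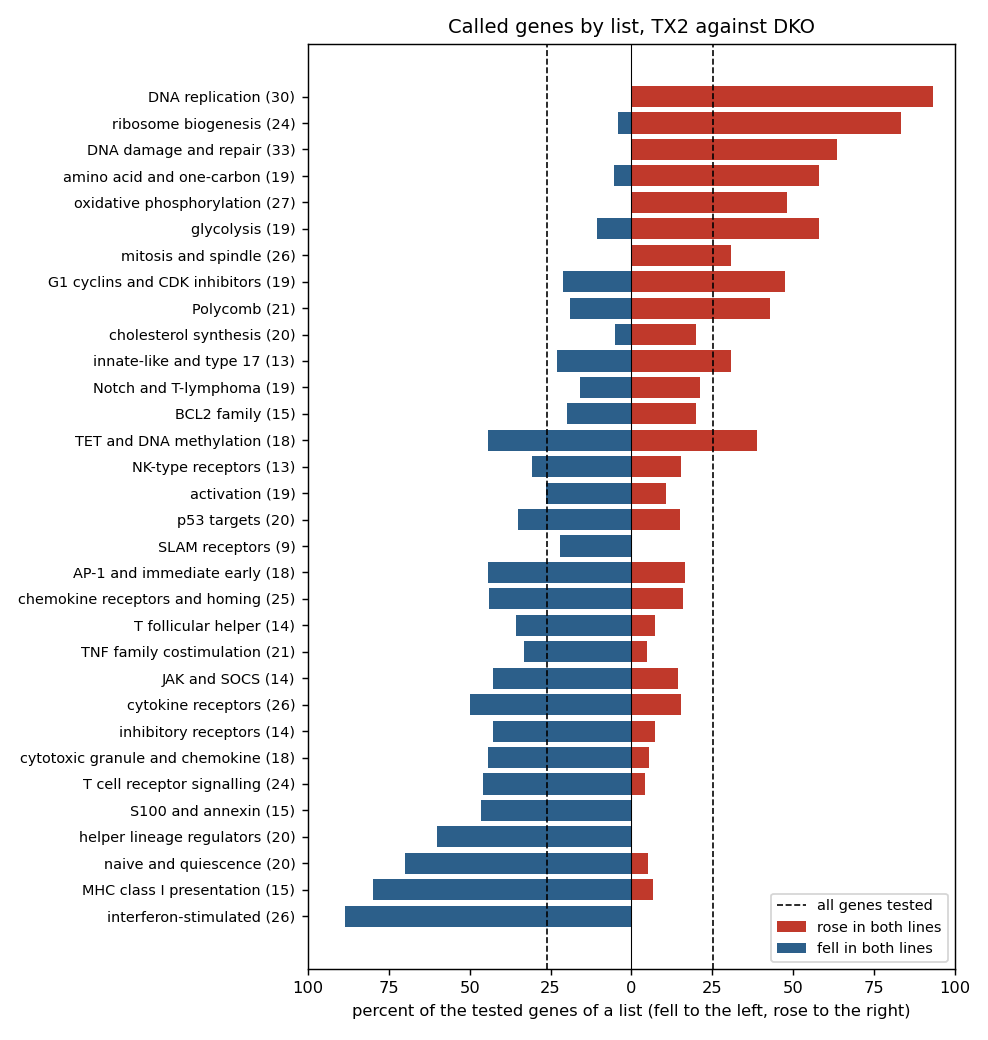
Percent of the tested genes of each of 32 lists that rose (red, to the right) or fell (blue, to the left) in TX2 against DKO, with the number tested in parentheses and the shares over all genes tested (25.2% and 26.1%) as dashed lines. DNA replication stands at the top with 28 of 30 risen and interferon-stimulated genes at the bottom with 23 of 26 fallen.

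Counts for several lists were lower by over 1.5 times when counts were summed over each line. Falls numbered 7 for helper regulators, 4 for cytotoxic genes, 3 for inhibitory receptors, 1 for follicular genes, 7 for cytokine receptors, 7 for homing receptors, 5 for TET and DNA methylation genes and 4 for immediate early genes. Rises numbered 7 for glycolysis, 7 for oxidative phosphorylation, 4 for TET and DNA methylation genes and 5 for Polycomb genes.

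The largest rises were in genes that T cells are not known for. By the naming rule the 10 genes were Gabra4, Lgi1, Edar, Pcdh7, Wnt6, Apba2, Sema5a, Tnni1, Arhgap28 and Thsd4. Gabra4, a subunit of a neuronal GABA receptor, gave 10257 reads in the 7 TX2 libraries and 1 in the 5 DKO libraries, a ratio of 7131 (95% counting interval 1280 to 281685); it had 11.5 to 21.6 CPM in J22 and 55.6 to 111 CPM in J3. Lgi1, a secreted neuronal protein, gave 3807 reads in TX2 and 0 in DKO, at least 882-fold higher against a floor of 3 reads over the group, but J22 had only 0.0673 to 0.478 CPM and J3 18.01 to 55.8 CPM. Edar, the ectodysplasin receptor of skin appendages, gave 1824 reads in TX2 and 0 in DKO, at least 423-fold higher.

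The line with the higher level was not always the same. Wnt6, a secreted Wnt ligand, was at 46.4 to 99.3 CPM in J22 and 3.51 to 13.5 CPM in J3, against 0.0736 CPM or lower in DKO. Sema5a, an axon guidance protein, had 5.61 to 10.3 CPM in J22 and 56.8 to 228 CPM in J3, against 0.193 CPM or lower in DKO, and Tnni1, the troponin I of slow muscle, 8.14 to 36.1 CPM in J22 and 231 to 491 CPM in J3, against 0.644 CPM or lower. Against the DKO libraries labelled young alone, Arhgap28, Pcdh7 and Lgi1 lost their calls.

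The 10 largest falls were Il21, Cd109, Msc, Dsp, Cd4, Itgb8, Car5b, Stmn2, Sntg2 and Stat4. Msc, a transcription factor that restrains the Th2 programme in T cells, gave 0 reads in TX2 and 783 in DKO, at least 375-fold lower against a floor of 3 reads over the group. Cd109, a surface coreceptor of TGF-beta, gave 2 reads in TX2 and 4596 in DKO, and Itgb8, the integrin subunit that activates TGF-beta, 3 and 2410. Stmn2, a microtubule regulator, gave 1 read in TX2, against 2.39 to 7.88 CPM in every DKO library. Several of these genes were highest in DKO replicate 2, with 46.5 CPM for Itgb8 and 67.5 CPM for the carbonic anhydrase gene Car5b, against 14.2 and 20.4 CPM at most in the other DKO libraries.

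Opposite changes in the lines were strongest for Grb10, Cadps2, Mpped2 and Nr3c2. Grb10, an adaptor that dampens insulin signalling, had 0.168 CPM or lower in J22 and 173 to 958 CPM in J3, against 0 to 1.32 CPM in DKO. Cadps2 and Nr3c2 were likewise high in J3 alone, and Mpped2 in J22 alone, with 33.5 to 39.3 CPM in J22 and 0.0644 CPM or lower in J3. The calls on Cadps2, Mpped2 and Nr3c2 were lost when single libraries were left out.

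Expression along the chromosomes shifted as well. Over autosomal genes with a DKO mean of at least 3 CPM, the median log2 difference from the DKO mean was taken per chromosome in each library, relative to that library's median over all autosomes, and each DKO library was set against the mean of the other DKO libraries. Chromosome 17 stood at 0.36, 0.40, 0.38 and 0.37 in J22 and at 0.35, 0.37 and 0.35 in J3, against -0.01 to 0.02 in the DKO libraries. Of the 744 genes tested on chromosome 17, 40.5% rose, against 25.2% of all genes. Chromosome 6 was raised in J22 alone (0.28 to 0.45, against -0.19 to -0.10 in J3), and chromosome 15, which carries Myc, in J3 alone (0.30 to 0.49, against -0.07 to -0.04 in J22). Chromosome 16 ranged from 0.05 to 0.32 in J3 and chromosome 2 from 0.04 to 0.22 in J22, so that libraries with the same receptors differed. These values are descriptions of RNA; DNA copy number was not measured here. The class I genes of the H2 complex and Phf1 lie on chromosome 17 and fell, while Msh6 and Uhrf1 lie on it and rose.

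**Figure D5:**
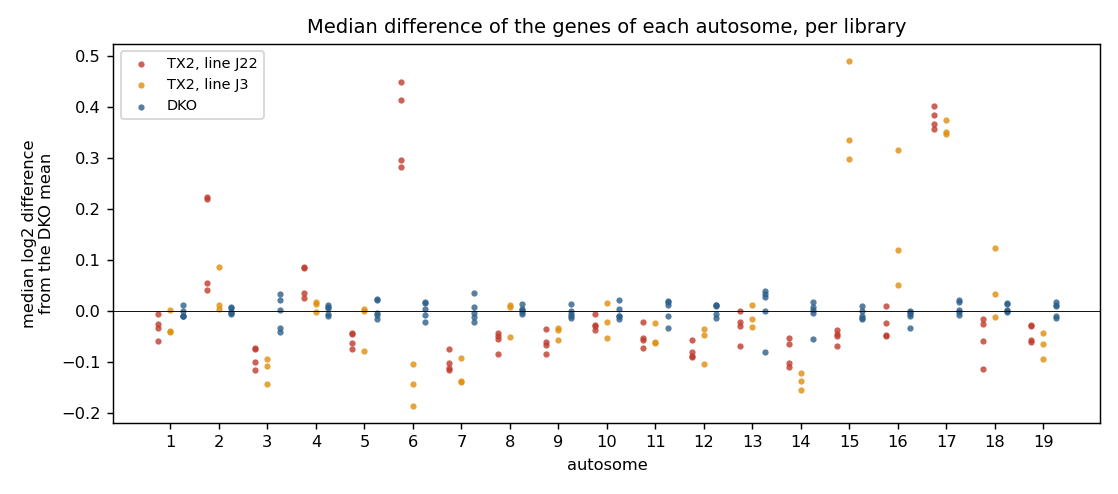
Median log2 difference from the DKO mean of the genes of each autosome, per library, for TX2 line J22, TX2 line J3 and DKO. Chromosome 17 stands at 0.35 to 0.40 in all 7 TX2 libraries, chromosome 6 is high in J22 alone and chromosome 15 in J3 alone, and DKO libraries lie between -0.08 and 0.04 throughout.

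Markers of other cells differed between the lines. The summed level of 11 B cell markers was 90.5 to 243 CPM in J3 and 2.86 to 4.50 CPM in J22, against 19.2 to 123 CPM in DKO. The 9 MHC class II genes summed to 267 to 687 CPM in J3 and 102 to 179 CPM in J22, against 129 to 280 CPM in DKO. The 11 neutrophil markers summed to 67.5 to 127 CPM in J3 and 0.499 to 0.875 CPM in J22, against 4.01 to 28.3 CPM in DKO replicates 1 to 3 and 179 to 180 CPM in those labelled young. Haemoglobin transcripts peaked in TX2 replicate 7 (Hbb-bs, 275 CPM, against 14.3 CPM at most in the other TX2 libraries and 1.96 CPM at most in DKO). Their part in the results was not tested. A kept change needs only the same sign in J22, not a call there: Hba-a1 differed from DKO by 0.16 in J22 and by 5.18 in J3 on the log2 scale, and Fcer2a, a B cell marker, by 0.13 and 6.09.

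TX2 was also set against the 4 libraries of the first transfer (TX1) to see whether the second round added to the change. Only 6 of 13907 genes (0.0431%) were called, 3 in each direction (0.0216% each), although 2992 had an unadjusted p below 0.05 and DESeq2 called 1438. The count turned on single libraries: it was 1318 without TX1 replicate 4, 119 without TX2 replicate 6, 23 without TX1 replicate 3 and 0 to 5 without any of the others. TX1 replicate 3 carried the J3 receptors, with 84.1% of its TRA and 89.3% of its TRB reads. In TX1 replicate 3 Cd4 was at 27.2 CPM, Gabra4 at 42.0 CPM, Lgi1 at 38.2 CPM and Grb10 at 23.8 CPM, where the J3 libraries of TX2 had 1.42 to 2.23, 55.6 to 111, 18.01 to 55.8 and 173 to 958 CPM. With 1 TX1 library of this clone there is no test of these differences. TX1 replicate 4 held 6 TRA and 11 TRB reads of the J22 receptors, 0.106% and 0.292% of its reads, and no other TX1 library held any.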

How the data were processed

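Deposited counts of reads per gene, in STAR's layout, were used from the unstranded column; fastp 0.21.0, STAR 2.7.5a and the builds mm10 and GRCm38 are named in the submitters' processing notes. The authors also deposited receptor tables with a read count for each CDR3 sequence; no source used here names their caller. Of 55487 gene identifiers 55227 matched GENCODE M21. TMM scaling, filterByExpr and edgeR 4.0.16 (R 4.3.3) gave the quasi-likelihood tests with a threshold of 0.05; DESeq2 1.42.0 and other alternatives are listed in the closing section. Exact permutation tests used scipy 1.17.1. Steps were tested on simulated data. Reads per gene carried no molecular identifiers, so intervals and floors cover counting error only. Libraries of a group differed by more than counting noise (chi-square per gene of 6.50 or higher), so none was counted as 1 library deposited more than once; whether any are repeat preparations of 1 sample was not tested. The labels do not say that replicates came from separate animals, so p-values may measure technical spread.

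Members and lists were chosen with earlier results of these data known. Genes named are the 10 largest rises and falls without overlap at a mean of at least 5 CPM in the higher group, up to 4 kept members of each of 48 lists by adjusted p, the 4 genes called with opposite sign and the widest gap between lines, and 12 fixed genes (the TET genes, Cd4, the CD8 genes, Foxp3, Zbtb16, Myc, Trp53, Mki67 and Ptprc). Trac, Cish, Socs genes other than Socs3, Isg20, Oas1a, Ddx58, Trbc1, Trdc, Lag3, Pdcd1, Tcf7, Lef1, Ccr8, Cdkn2a, Isg15, Igtp, Ifit1, Mcm5 and Pola1 were added after their values were seen. So were Cd3e, Cd3d, Cd3g, Cd247, Il2ra and Ikzf2. Reads were counted without strand, so a gene and an overlapping antisense gene cannot be told apart. Some genes of the lists are counted but not reported here by name.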

Additional observations from a re-analysis of the deposited data

Results flagged for a closer look

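In 37 of the 256 groups of values examined 1 library stood far from the others, by its gap to the next value over the range. No chance rate is given for this count. TX2 joins 2 lines, and a group with reads in 1 library alone is always flagged. DKO replicate 2, the only female DKO library and the one with a dominant clone, accounted for 19 of them. Its top clonotype took 77.9% of TRA and 77.8% of TRB reads. It was the highest DKO library for Il21 (300.9 CPM), Msc (21.6 CPM), Itgb8 (46.5 CPM), Car5b (67.5 CPM), Bhlhe40 (1313 CPM), Bcl6 (253 CPM), Tnfrsf4 (218 CPM), Tnfsf8 (465 CPM), Jak3 (738 CPM), Pmaip1 (65.4 CPM), Tnfrsf10b (6.25 CPM), Cd160 (181 CPM), Hhex (16.96 CPM) and Zbtb7b (273 CPM). It was the lowest for Bcl11b (95.8 CPM), Selplg (369.6 CPM) and Cbx2 (11.3 CPM).

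TX2 replicate 6 was the highest TX2 library for Anxa2 (33.0 CPM), Ctla4 (14.1 CPM), Ifih1 (13.5 CPM), Slamf1 (6.76 CPM), Tnfrsf10b (1.54 CPM) and Tnfsf4 (0.0944 CPM). TX2 replicate 7 was the highest for Hbb-bs (275 CPM), Lrrc32 (0.258 CPM) and Il21 (0.0322 CPM). Single high TX2 values were also seen for Gzmk (0.0673 CPM) and Stmn2 (0.0336 CPM) in replicate 2, Ifng (0.171 CPM) in replicate 1 and Xcl1 (6.07 CPM) in replicate 5. In DKO, replicate 1 was highest for Txnip (443 CPM) and Plcg1 (402 CPM), replicate 5 for Hbb-bs (1.96 CPM), and replicate 4 held the only read of Gabra4 and of Pcdh7 (0.0321 CPM each).

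For 4 genes every J22 library lay on one side of the DKO mean and every J3 library on the other: the change in J22 minus the change in J3 was -11.84 for Grb10, -9.68 for Cadps2, 8.77 for Mpped2 and -8.17 for Nr3c2 on the log2 scale. The difference between the lines was not tested, and line and sex cannot be told apart.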

How the results depend on the processing

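The 7255 calls in TX2 against DKO, and the 7209 of the same sign in both lines, became 1466 and 1464 when a fold of 2 was the null (glmTreat), 4334 and 4334 against the DKO libraries labelled young alone, and 4555 and 4535 with counts summed over each line. Other settings stayed within 1.5 times: 8950 calls with DESeq2, 7644 with no low-count filter, 7937 with all groups in 1 fit, 7962 with sex as a covariate and 6432 to 7125 with single libraries left out. With male libraries alone (8530 calls) J3 was absent, so no count over both lines was run. For TX2 against TX1 the 6 calls became 1438 with DESeq2, 13 with no filter and 0 to 1318 with single libraries left out. Of the 175 named genes called, 159 were called whichever library was left out, 135 against the young DKO libraries and 150 with summed counts. The direction turned for Fcer2a (-0.62) and Nr3c2 (-2.72) with male libraries alone, and for Grb10 (-0.30), Cadps2 (-0.32) and Nr3c2 (-1.27) with sex as a covariate; the cause was not tested. Shared replicate numbers did not pair the libraries (correlations of -0.11 to 0.16 with DKO and -0.24 to 0.31 with TX1): with a replicate block 6002 genes were called against DKO and 486 against TX1, and Nr3c2 turned to -1.12. J3 shares 1 number with DKO, so it had no such fit. Genes with a few reads in a group have no reliable fold.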

Other observations

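The counts of the lists not described above follow, where 25.2% of all genes tested rose and 26.1% fell. Activation genes rose in 2 and fell in 5 of 19 cases, NK-type receptors rose in 2 and fell in 4 of 13, and SLAM receptors fell in 2 of 9. Of 12 macrophage and monocyte markers and 11 neutrophil markers 0 were called in either direction, and of 4 mast cell and basophil markers 0 were called with the same sign in both lines. Erythroid markers, among them Tfrc, rose in 5 of 7 cases. In J22 alone 1 rose and 1 fell, and in J3 alone 6 rose. Hba-a1 and Hba-a2 lost their calls without TX2 replicate 7. Markers of stroma and endothelium fell in 3 of 4. Among conventional alpha-beta CD4 T cell markers 1 of 13 rose and 5 fell. All 4 gamma-delta markers tested rose. Trdc of that list was not tested and had 0 reads in TX2 and 457 in DKO. Invariant NKT markers rose in 2 and fell in 1 of 4. Dendritic cell markers rose in 2 and fell in 1 of 6, NK cell and plasma cell markers rose in 1 and fell in 1 of 5 and of 4, and platelet markers rose in 1 of 2. B cell and MHC class II markers rose in 1 of 11 and 1 of 9.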
